A study of Homo sapiens with 45 samples.

Results

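The genes described here are 34 genes of endoplasmic reticulum (ER) stress and protein folding, among 28278 gene names counted in 8 RNA libraries of HCT116 cells. They cover the unfolded protein response, the ER chaperones and ER-associated decay. They were chosen by function together with the rise of HERPUD1 after HNRNPK siRNA, so their values in that comparison are given as a description. Whether a gene passed the threshold of the fit over all genes is stated there without a p-value and is not read as support. Enough counts for testing were present for 31 of the 34. HYOU1, EDEM2 and DERL3 held 0 to 17 counts in each of these libraries.

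HCT116 is a human colon cancer cell line, and HNRNPK encodes an RNA- and DNA-binding nuclear protein. All cells received siRNA at 25 nM for 72 hours. Controls received a nontargeting siRNA, in 4 libraries named siNTC5 and 2 named Scramble, and 4 libraries came from cells given siRNA against HNRNPK. Replicates 1 and 2 of siNTC5 and siHNRNPK, and both Scramble libraries, were made with the TruSeq stranded mRNA kit, and replicates 3 and 4 with the Stranded mRNA Ligation kit. RNA of the Scramble libraries was purified with another kit (Qiagen RNeasy) than that of the other 8 (Maxwell RSC). The series also holds 35 chromatin immunoprecipitation and input libraries, from which 7 lists of domains were deposited. The labels do not say whether replicates were separate cultures, so a p-value measures only the spread between these libraries. In bulk RNA, a change in the make-up of the cells and a change of RNA per cell cannot be told apart.

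The ER folds proteins that are secreted or placed in membranes. When unfolded protein accumulates, the ER membrane sensors ATF6, IRE1 (gene ERN1) and PERK (gene EIF2AK3) are released or activated. The first acts as a transcription factor after cleavage, the second splices XBP1 mRNA, and the last phosphorylates eIF2 alpha, which favours translation of ATF4. The ATF6 and XBP1 proteins act through promoter elements of chaperone and decay genes, and HSPA5 and HERPUD1 are among their best known targets.

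Total counts per library were 12107280 to 23633851 in the 8 libraries and 55007171 to 59209169 in the Scramble libraries. HNRNPK, the targeted gene, stood at 934, 967, 822 and 814 CPM (counts per 1000000 counts of the library, its total scaled by the TMM method) in siNTC5 and at 250.3, 223, 157 and 164 in siHNRNPK. The siHNRNPK mean was 22.4% of the control mean (log2 fold change -2.17 ± 0.06 SE, edgeR adjusted p = 7.29e-15). All 8 epithelial markers on a list for HCT116 passed the filter on low counts. Of 11 markers of other cell types, COL1A1 and PDGFRB passed it, and the summed level of the list was 44.5 to 73.1 CPM in siNTC5 and 74.6 to 122 CPM in siHNRNPK. Almost all of that sum was COL1A1, at 60.1 CPM in siNTC5 and 97.6 CPM in siHNRNPK, and its part in the results below was not tested.

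The ER stress response element, ERSE, was read in the promoters because it is the site through which ATF6 and XBP1 act. It was searched as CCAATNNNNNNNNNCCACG on both strands, from 250 bases before to 50 bases after each RefSeq start (GRCh38.p14). A promoter was matched for 30 of the 34 genes. An exact ERSE was present for 7 of these 30 (23.3%), XBP1, HSPA5, HSP90B1, CRELD2, CALR, CANX and PDIA6, against 25 of 27305 genes with a promoter (0.0916%). The related ERSE-II, ATTGGNCCACG, was present for HYOU1, SDF2L1 and HERPUD1, against 19 of all 27305 genes. HYOU1 alone held a UPRE (TGACGTGG, 0.927% of all genes), whose letters overlap one of its ERSE-II matches. CREB3L2 and HERPUD1 held a CARE (TGATGNAA, 4.46% of all genes), the element associated with ATF4 and its partners. A match is a description of the letters and shows no binding. The genes were chosen by function and include known targets of ATF6 and XBP1, so nothing is read from their share beside that of all genes.

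The following stretches run 5′ to 3′ on the strand of the gene, from 130 to 31 bases before the start, with the match in capitals. They are shown because genes with the same element had different values after HNRNPK siRNA.
HSPA5 (ERSE, chr9:125241374-125241473, minus strand): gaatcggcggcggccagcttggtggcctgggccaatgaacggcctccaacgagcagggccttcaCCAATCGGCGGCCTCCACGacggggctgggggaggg
XBP1 (ERSE, chr22:28800600-28800699, minus strand): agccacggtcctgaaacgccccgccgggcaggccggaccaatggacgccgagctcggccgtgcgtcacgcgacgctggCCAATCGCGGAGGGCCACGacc
HSP90B1 (ERSE, opposite strand, chr12:103930280-103930379, plus strand): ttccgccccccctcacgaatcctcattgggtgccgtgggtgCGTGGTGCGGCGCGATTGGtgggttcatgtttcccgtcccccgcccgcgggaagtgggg
PDIA6 (ERSE, chr2:10812816-10812915, minus strand): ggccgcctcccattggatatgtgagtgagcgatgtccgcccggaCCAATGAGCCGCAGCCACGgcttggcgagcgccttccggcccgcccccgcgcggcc
CRELD2 (ERSE, opposite strand, chr22:49918504-49918603, plus strand): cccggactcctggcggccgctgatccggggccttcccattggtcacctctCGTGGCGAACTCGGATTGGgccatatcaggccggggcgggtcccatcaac
HERPUD1 (ERSE-II, chr16:56932012-56932111, plus strand): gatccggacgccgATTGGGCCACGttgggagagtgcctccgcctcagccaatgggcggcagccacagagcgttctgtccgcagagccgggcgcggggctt

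Of the 7 genes with an exact ERSE, 5 had higher levels after HNRNPK siRNA, 1 was lower and 1 did not pass an adjusted p of 0.05, which 35.5% of all tested genes passed as higher and 36.1% as lower. Of the other tested genes with an exact ERSE, 5 were higher, 4 lower and 2 did not pass. HSPA5, with its match 66 to 48 bases before the start, had a log2 fold change of 1.42. CRELD2, with a match at a like distance (80 to 62 bases), had -1.38, and PDIA6 (86 to 68 bases) had -0.04. These values are relative to siNTC5. Relative to Scramble, HSP90B1 and CALR passed as higher, HSPA5 did not pass, and XBP1, CANX, PDIA6 and CRELD2 passed as lower. Over all genes 38.8% passed as higher there and 42.4% as lower, and CANX was counted very differently in the Scramble libraries (below).

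**Figure D1:**
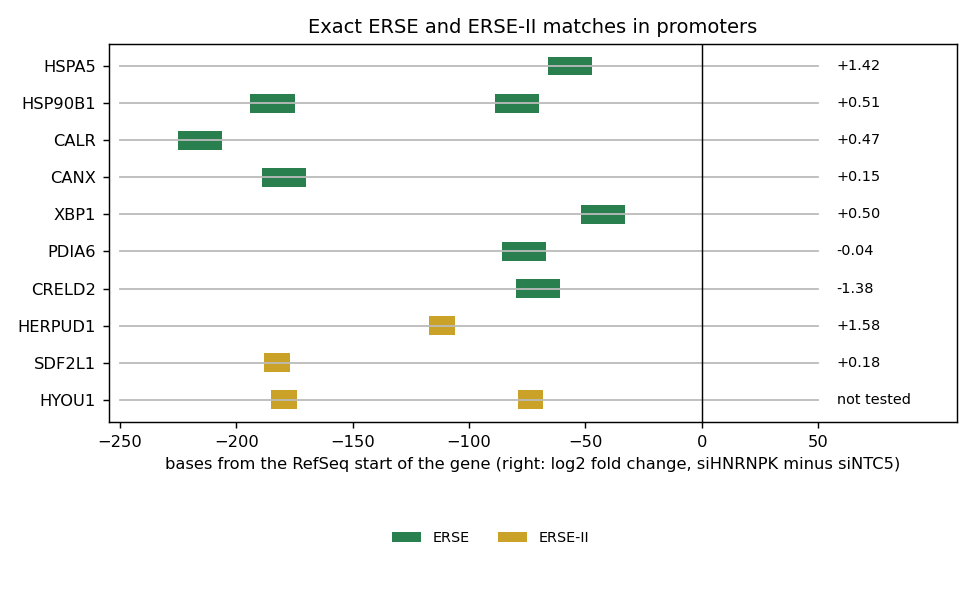
Position of exact ERSE (green) and ERSE-II (yellow) matches, in bases from the RefSeq start, for the 10 genes that hold one; grey lines mark the window read, and for CANX the most downstream of its matching promoters is drawn. The numbers at the right are log2 fold changes of siHNRNPK minus siNTC5, from -1.38 for CRELD2 to 1.58 for HERPUD1, with HYOU1 not tested.

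After HNRNPK siRNA the genes did not move in 1 direction. HERPUD1, HSPA5, its J-domain partners, EIF2AK3 and the derlins were higher than in siNTC5. CRELD2, SEC24D, CREB3L2, MANF, EDEM1 and P4HB were lower. Of the 31 genes, 16 passed an adjusted p of 0.05 as higher, 10 as lower and 5 did not pass. Over all 13933 genes tested, 35.5% passed as higher and 36.1% as lower, and nothing is read from the count, since HERPUD1 in this comparison was used to choose the genes. Libraries of both groups did not overlap for 24 of the 31 genes (16 higher, 8 lower), beside 56.5% of all genes. The median log2 fold change was 0.18 among the 31 and -0.004 over all genes. Nothing is read from the overlap count or the median either, for the same reason.

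**Figure D2:**
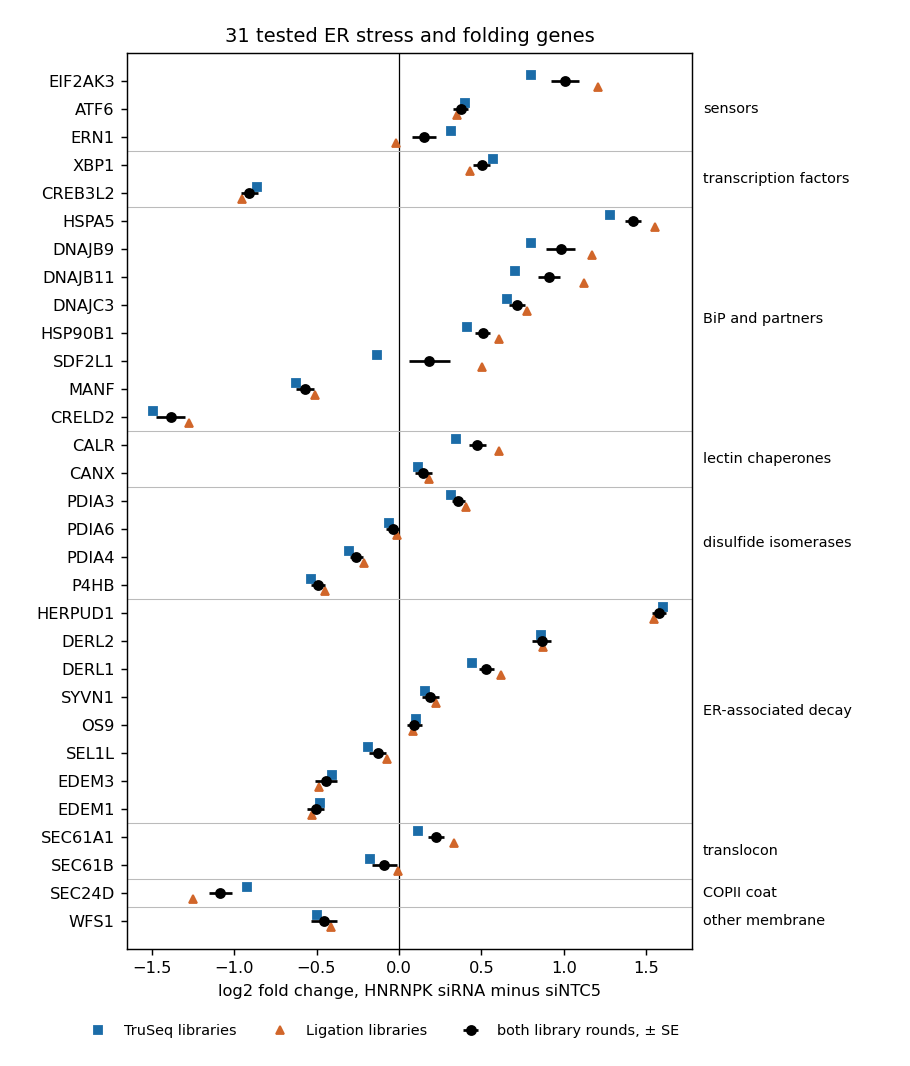
Log2 fold change of siHNRNPK minus siNTC5 for the 31 tested genes by role, from the fit of all 8 libraries (black points, bars ± SE) and within the TruSeq (blue squares) and Ligation (orange triangles) libraries. Values run from -1.38 for CRELD2 to 1.58 for HERPUD1, and ERN1 lies at 0.32 in the TruSeq and -0.02 in the Ligation libraries.

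Among the sensors, EIF2AK3 mRNA moved most. It stood at 20.6, 19.0, 22.5 and 20.7 CPM in siNTC5 and at 33.2, 35.7, 52.1 and 47.5 CPM in siHNRNPK (log2 fold change 1.01 ± 0.09 SE). All 4 depleted libraries lay above all controls, with the Ligation libraries highest, and the change was 0.80 in the TruSeq and 1.21 in the Ligation libraries. ATF6 was at 84.6, 75.7, 89.7 and 91.6 CPM in siNTC5 and at 105, 106, 116 and 115 CPM in siHNRNPK, again without overlap (0.37 ± 0.05). ERN1, the IRE1 gene, was at 32.5, 36.2, 39.4 and 41.1 CPM in siNTC5 and at 42.3, 43.7, 38.3 and 41.1 CPM in siHNRNPK. These groups overlapped, and the log2 fold change of 0.15 ± 0.07 did not pass. It was 0.32 within the TruSeq and -0.02 within the Ligation libraries. ERN1 passed with upper-quartile scaling, with a stricter filter on counts, in a fit of the TruSeq libraries alone, and without siNTC5 replicate 4 or siHNRNPK replicate 3. These are gene counts, and neither splicing of XBP1 nor the activity of any sensor was measured.

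Relative to siNTC5 the transcription factors took opposite directions, while relative to Scramble both XBP1 (-0.35) and CREB3L2 (-1.91) were lower (below). XBP1 was at 65.3, 65.4, 83.2 and 75.2 CPM in siNTC5 and at 97.3, 97.0, 107 and 106 CPM in siHNRNPK (0.50 ± 0.05). CREB3L2, an ER membrane factor related to ATF6, was at 102.5, 103.4, 122 and 119 CPM in siNTC5 and at 59.7, 53.4, 59.6 and 65.0 CPM in siHNRNPK (-0.91 ± 0.05). In neither case did the groups overlap.

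BiP, the Hsp70 of the ER, is encoded by HSPA5 and had the largest log2 fold change of the 8 tested genes for BiP and its partners. HSPA5 stood at 1077, 1089, 1265 and 1279 CPM in siNTC5 and at 2608, 2649, 3750 and 3725 CPM in siHNRNPK (1.42 ± 0.05, 2.67-fold). Every depleted library held more HSPA5 than every siNTC5 library, and the depleted Ligation libraries stood above the depleted TruSeq libraries. Relative to Scramble, HSPA5 had a log2 fold change of 0.08, with overlap, and did not pass (below). Its J-domain co-chaperones, which hand clients to BiP, lay on the same side. DNAJB9 (ERdj4) was at 14.3 ± 0.658 CPM in siNTC5 and 28.4 ± 3.73 CPM in siHNRNPK (SD, n = 4; log2 fold change 0.98 ± 0.09 SE). DNAJB11 (ERdj3) had a log2 fold change of 0.91 ± 0.07 and DNAJC3 (P58IPK) one of 0.72 ± 0.05. HSP90B1, the Hsp90 of the ER, had 0.51 ± 0.04. SDF2L1, the partner of ERdj3, overlapped between the groups (0.18 ± 0.12), with -0.14 in the TruSeq and 0.50 in the Ligation libraries.

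The secreted BiP-binding factor MANF and the ER stress-induced protein CRELD2 went the other way. CRELD2 stood at 34.9, 30.1, 35.5 and 32.9 CPM in siNTC5 and at 10.9, 12.1, 13.2 and 15.0 CPM in siHNRNPK (-1.38 ± 0.09). The depleted mean was 38.5% of the control mean, the lowest share of the 31 genes. MANF was at 81.5 ± 4.47 CPM in siNTC5 and 54.9 ± 0.806 CPM in siHNRNPK (SD, n = 4; log2 fold change -0.57 ± 0.05 SE), without overlap.

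The lectin chaperones hold glycoproteins in the folding cycle. Calreticulin (CALR) was at 851 ± 23.6 CPM in siNTC5 and 1187 ± 124 CPM in siHNRNPK (SD, n = 4; log2 fold change 0.47 ± 0.05 SE). Calnexin (CANX) had 0.15 ± 0.05, on a count of 753 to 1392 per library that is far below that of the Scramble libraries (below). Among the disulfide isomerases, PDIA3 (ERp57), which works with both lectins, was higher (0.36 ± 0.04). PDIA4 (-0.26 ± 0.04) and P4HB, the classical protein disulfide isomerase (-0.49 ± 0.04), were lower, and PDIA6 was at -0.04 ± 0.04 and did not pass.

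In ER-associated decay, HERPUD1 encodes a membrane scaffold of the HRD1 ubiquitin ligase. It stood at 54.5, 53.5, 71.7 and 73.2 CPM in siNTC5 and at 164, 164, 211 and 213 CPM in siHNRNPK (1.58 ± 0.04, 2.98-fold). Within the TruSeq libraries the log2 fold change was 1.60 and within the Ligation libraries 1.55. Relative to Scramble, HERPUD1 had 0.10 and did not pass (below). The derlins, membrane proteins of retrotranslocation, were higher too, DERL2 by 0.87 ± 0.06 and DERL1 by 0.53 ± 0.05. DERL2 varied little within a group, with 31.2 ± 0.839 CPM in siNTC5 and 57.0 ± 0.286 CPM in siHNRNPK (SD, n = 4). The ligase itself, SYVN1 (HRD1), had 0.19 ± 0.05, its adaptor SEL1L -0.13 ± 0.05, and the lectin OS9 0.09 ± 0.05, which did not pass. The mannosidase-like factors EDEM1 (-0.50 ± 0.05) and EDEM3 (-0.44 ± 0.07), which mark misfolded glycoproteins, were lower. DERL3 had 0 counts in all 8 libraries, which allows at most 0.127 to 0.248 CPM, counting error only. This limit does not cover differences in counting between the tables (below), and DERL3 had 3 and 10 counts in the Scramble libraries.

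At the entry to the ER, the translocon channel gene SEC61A1 had 0.23 ± 0.05, and SEC61B had -0.09 ± 0.08 and did not pass. At the exit, SEC24D, a cargo subunit of the COPII vesicle coat, stood at 68.1, 69.5, 88.5 and 90.5 CPM in siNTC5 and at 38.8, 33.7, 36.4 and 39.0 CPM in siHNRNPK (-1.08 ± 0.07). The depleted libraries lay close together, while the controls split by library kit. WFS1, the wolframin gene, was at 31.3 ± 6.27 CPM in siNTC5 and 22.9 ± 5.09 CPM in siHNRNPK (SD, n = 4; log2 fold change -0.45 ± 0.08 SE), with overlap between the groups. Of the 34 genes, 16 overlap another RefSeq gene, such as PDIA3 with ELL3 and DERL2 with MIS12, and with the strand setting of the counting not given, shared reads could add to or be lost from their counts.

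Other genes of the same processes were read in the same edgeR fit, beside the shares of all genes given above (35.5% higher, 36.1% lower). They were listed without regard to direction, but with earlier results of these data known. Of 23 other tested folding genes, 8 rose and 12 fell. HSPA13, an Hsp70-like protein, rose from 55.9 ± 2.24 to 99.2 ± 5.84 CPM (SD, n = 4; log2 fold change 0.83, edgeR adjusted p = 1.39e-10). H6PD, which makes NADPH in the ER lumen, fell from 42.1 ± 5.42 to 3.80 ± 0.644 CPM (-3.44, adjusted p = 3.25e-14), a larger change than that of any of the 31 genes. Of 25 other decay genes 8 rose and 13 fell, with SELENOS highest (0.87, adjusted p = 1.25e-09) and FOXRED2 lowest (-1.58, adjusted p = 4.18e-11).

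Translocation and export genes were called higher more often than lower. Of 29 other genes of translocation and N-glycosylation, 21 rose and 1 fell. SRPRB, a subunit of the signal recognition particle receptor, rose from 74.0 ± 12.6 to 139 ± 5.17 CPM (SD, n = 4; log2 fold change 0.92, edgeR adjusted p = 2.35e-10), while RPN2 of the oligosaccharyltransferase fell slightly (-0.11, adjusted p = 0.0303). Of 20 other tested export and retrieval genes, 12 rose and 2 fell. SEC24A, a paralog of SEC24D, rose from 65.6 ± 2.66 to 128 ± 12.6 CPM (0.96, adjusted p = 2.96e-11), and the KDEL receptor gene KDELR3 fell from 59.4 ± 8.52 to 16.1 ± 1.24 CPM (-1.87, adjusted p = 4.22e-13).

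Of 18 other tested genes on a list of sensors and factors, 9 rose and 3 fell. The list is mixed and also holds BAX, BAK1, BBC3 and DNAJC2. Of its proteases, MBTPS1 fell (-0.52) and MBTPS2 did not pass. The extremes were CREB3L1 (0.85, edgeR adjusted p = 0.0127) and CREB3L3 (-1.22, adjusted p = 0.00361), both near 1 CPM. Of 13 tested genes of the ATF4 arm, downstream of PERK and other eIF2 alpha kinases, 11 rose and 1 fell, with a median log2 fold change of 1.06. None of the lists of other genes was compared with the Scramble libraries, against which HERPUD1 had 0.10 and HSPA5 0.08 (below). ATF4 itself rose from 435 ± 58.4 to 903 ± 17.8 CPM (SD, n = 4; 1.06, adjusted p = 3.84e-12). DDIT3, which encodes CHOP, rose from 19.2 ± 6.3 to 66.9 ± 5.88 CPM (1.84, adjusted p = 8.1e-12). ATF3 rose from 23.9 ± 5.04 to 121 ± 15.6 CPM (2.34, adjusted p = 7.29e-15). DDIT4, an inhibitor of mTORC1 signalling, fell (-0.77, adjusted p = 7.46e-07). CHAC1, a glutathione-degrading enzyme induced through ATF4, was at 3.7, 3.5, 37.9 and 30.7 CPM in siNTC5 and at 40.7, 41.7, 52.3 and 53.9 CPM in siHNRNPK (1.71, adjusted p = 0.000122). The Ligation controls of CHAC1 lay nearer to the depleted libraries than to the TruSeq controls.

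Libraries of 1 siRNA were also compared between the kits. Replicates 1 and 2 may differ from replicates 3 and 4 in more than the kit, and these cannot be told apart. Between siNTC5 libraries, 9 of the 31 genes differed between Ligation and TruSeq by edgeR, 8 of them higher in Ligation, beside 21.5% of all genes. HERPUD1 was higher by 0.43 ± 0.06 (log2, adjusted p = 0.000155), SEC24D by 0.38 ± 0.07 (adjusted p = 0.0018) and HSPA5 by 0.23 ± 0.05 (adjusted p = 0.0022). Only SEC61A1 passed as lower (-0.20 ± 0.05, adjusted p = 0.0134). Without siNTC5 replicate 3, fewer genes passed, among the 31 and over all genes, and HERPUD1 was higher by 0.45.

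Between siHNRNPK libraries, 14 of 31 were higher in Ligation and 0 lower, beside 15.2% of all genes in either direction, with edgeR's test. At an unadjusted p under 0.05 there were 17, all higher, beside 3950 of all 13933 genes in either direction. DESeq2 called 11 higher and 0 lower, beside 973 higher and 634 lower over all genes. HSPA5 was higher by 0.51 ± 0.05 (log2, edgeR adjusted p = 1.05e-05), HSP90B1 by 0.36 ± 0.05 (adjusted p = 0.000175) and HERPUD1 by 0.37 ± 0.05 (adjusted p = 0.000242). All 4 disulfide isomerases and 5 of 8 tested genes for BiP and its partners were among the 14. Without 1 siHNRNPK library, which leaves 1 of that kit, fewer genes passed, among the 31 and over all genes. With 1 library left out, HSPA5 was higher by 0.49 to 0.51, HSP90B1 by 0.31 to 0.40 and HERPUD1 by 0.36 to 0.37.

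**Figure D3:**
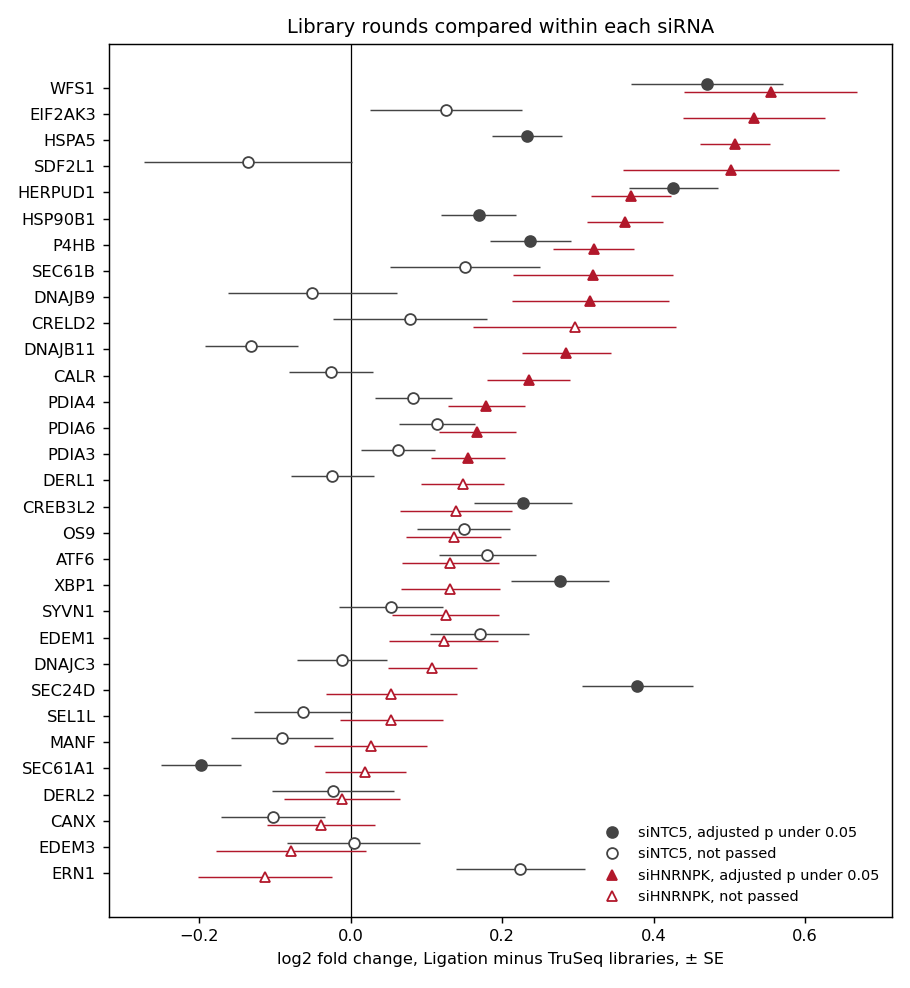
Log2 fold change of Ligation minus TruSeq libraries within siNTC5 (dark circles) and within siHNRNPK (red triangles) for the 31 tested genes, with bars ± SE and filled symbols for an edgeR adjusted p under 0.05. HSPA5 lies at 0.23 in siNTC5 and 0.51 in siHNRNPK, and SEC61A1 at -0.20 in siNTC5.

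Whether the effect of HNRNPK siRNA itself differed between the library rounds was tested as an interaction. None of the 31 genes passed by edgeR (0 called, beside 0.129% of all genes), and 11 had an unadjusted p under 0.05, as had 1639 of all 13933 genes. DNAJB11 came nearest, with a difference of 0.42 ± 0.08 between the log2 fold changes (adjusted p = 0.0617), followed by HSPA5 with 0.28 ± 0.07 (adjusted p = 0.100). This count was sensitive to the fit. DESeq2 called 2 genes, DNAJB11 (adjusted p = 0.0266) and HSPA5 (adjusted p = 0.00671), beside 42 higher and 29 lower over all genes. With the replicate numbers as a block within kit, 1 passed, DNAJB11 (edgeR adjusted p = 0.035), beside 49 and 17 over all genes. Without a filter on low counts 4 passed, beside 158 and 81 of 21564 genes. Without siNTC5 replicate 1, which leaves 1 TruSeq control, the difference was 0.41 for DNAJB11 and 0.26 for HSPA5. Without siNTC5 replicate 2 it was 0.38 and 0.25. For the 8 tested genes for BiP and its partners the difference, Ligation minus TruSeq, was 0.12 to 0.64, as it was above 0 for 7408 of all 13933 genes. For MANF and CRELD2, which were lower in both rounds, this is a smaller decrease in the Ligation libraries.

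The Scramble libraries gave another level for the controls. They come from tables of their own, and were compared on the names that the tables share, in 1 edgeR fit of 10 libraries. siRNA label, RNA purification kit, depth and count table all differ between Scramble and siNTC5 and cannot be told apart. Some genes were counted very differently in the tables. HYOU1 (GRP170, a nucleotide exchange factor of BiP) had 29708 and 25241 counts in Scramble and 0 to 4 in each of the 8 libraries. EDEM2 had 1682 and 1616 counts against 5 to 17, and CANX 68864 and 66025 against 753 to 1392. Across all shared names, 237 had at least 1000 counts in both Scramble libraries and at most 20 in each of the others, and 1 had the opposite. In RefSeq, HYOU1 overlaps HYOU1-AS1, EDEM2 overlaps MMP24-AS1-EDEM2 and CANX overlaps CBY3, and the part of such overlaps was not tested. Counts below are also given without these 3 genes, a choice made after seeing the data.

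Between the sets of controls most ER genes differed. This comparison shares the siNTC5 libraries with the one used for the choice of genes, so it too is described, and no p-value of a gene is given. Of 33 tested genes, 25 passed an adjusted p of 0.05 as higher in Scramble than in siNTC5 and 1 as lower. Over all genes 37.5% passed as higher and 31.8% as lower. Without HYOU1, EDEM2 and CANX, 22 of 30 passed as higher and 1 as lower. With upper-quartile scaling 21 were higher and 4 lower, and over all genes the split went from 5495 higher and 4651 lower to 4379 higher and 5773 lower. HERPUD1 stood at 149 and 153 CPM in Scramble and at 54.3, 53.5, 72.1 and 73.7 CPM in siNTC5 on the scale of the 10 libraries (log2 difference 1.46 ± 0.05). HSPA5 stood at 2562 and 2630 CPM in Scramble and at 1073, 1090, 1272 and 1287 CPM in siNTC5 (1.33 ± 0.06). For both genes all Scramble libraries lay above all siNTC5 libraries. ATF6 was higher in Scramble by 1.11 ± 0.06, DNAJB9 by 1.19 ± 0.10 and XBP1 by 0.85 ± 0.06 (log2). EDEM1 was the gene called lower (-0.997 ± 0.07).

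**Figure D4:**
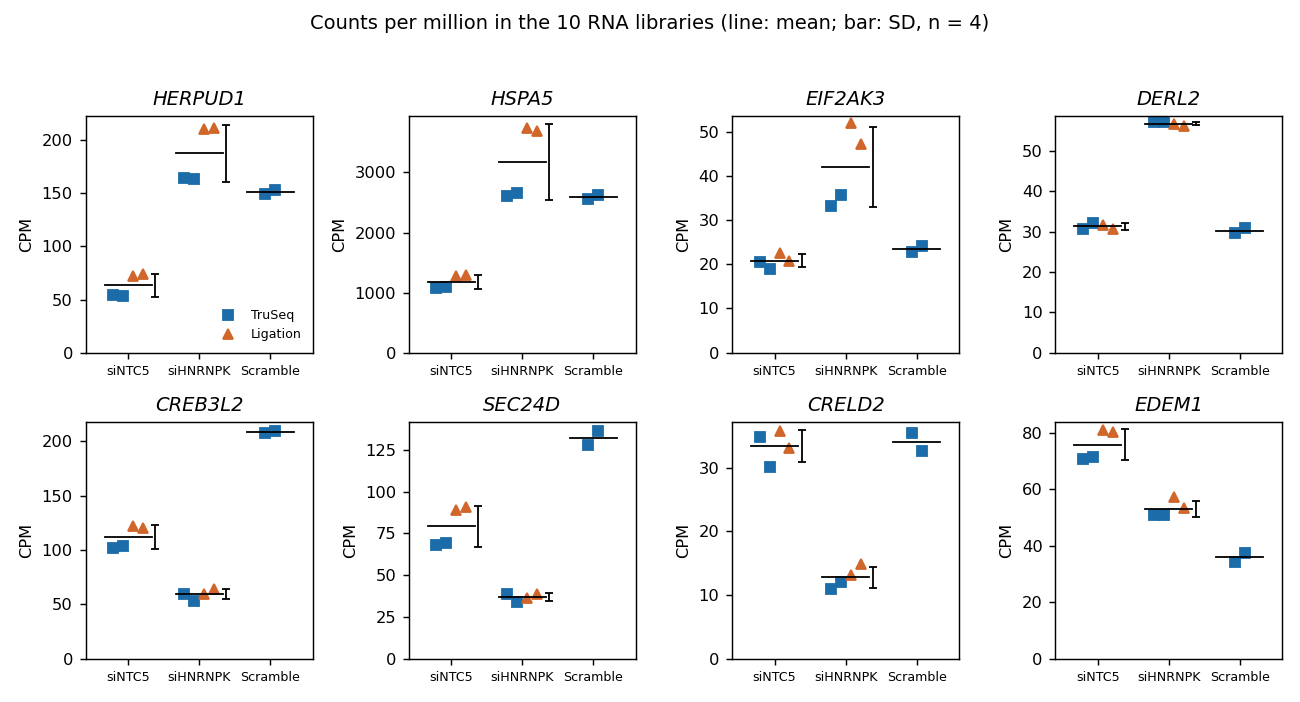
CPM of 8 genes in each of the 10 RNA libraries on a common TMM scale, with blue squares for TruSeq and orange triangles for Ligation libraries, black lines for group means and bars for the SD of the groups of 4. HERPUD1 lies at 149 and 153 in Scramble against 53.5 to 73.7 in siNTC5, and CREB3L2 and SEC24D lie lowest in siHNRNPK and highest in Scramble.

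Set against Scramble in place of siNTC5, the depleted cells kept some differences and not others. This comparison shares the siHNRNPK libraries with the one used for the choice of genes, so it is described with no p. Of 33 genes, 10 passed as higher and 19 as lower (10 and 16 of 30 without the 3 genes), beside 38.8% higher and 42.4% lower over all genes. HERPUD1 was 0.10 ± 0.05 higher in depleted cells than in Scramble and did not pass, against 1.58 relative to siNTC5. The depleted TruSeq libraries, of the same library kit as Scramble, stood at 164 and 164 CPM, and all 4 depleted libraries lay above both Scramble libraries. HERPUD1 passed with DESeq2 size factors (0.13), with the DESeq2 test (0.13) and without siNTC5 replicate 2 (0.11). HSPA5 had 0.08 ± 0.06 and did not pass, with depleted libraries at 2603, 2652, 3735 and 3698 CPM that overlapped Scramble. With upper-quartile scaling, which moved the median of all genes in this comparison from -0.039 to 0.146, both passed, at 0.29 and 0.27.

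DNAJB9 was -0.22 ± 0.10 relative to Scramble and 0.98 relative to siNTC5. Its depleted libraries (24.01, 26.6, 30.98 and 31.7 CPM) overlapped Scramble (30.4 and 32.0 CPM), and its distance from Scramble is close to the shift that upper-quartile scaling brings to all genes. ATF6 (-0.75 ± 0.06 and 0.37) and XBP1 (-0.35 ± 0.06 and 0.50) changed side with the control used. DERL2 did not, with 29.6 and 30.9 CPM in Scramble, 0.92 ± 0.07 relative to Scramble and 0.87 relative to siNTC5. DNAJB11 (0.78 ± 0.08 and 0.91), EIF2AK3 (0.65 ± 0.10 and 1.01) and CALR (0.40 ± 0.07 and 0.47) were higher than both sets of controls.

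On the lower side, CRELD2 was -1.50 ± 0.10 relative to Scramble and -1.38 relative to siNTC5, with 35.4 and 32.7 CPM in Scramble. SEC24D stood at 128 and 136 CPM in Scramble (-1.96 ± 0.08, against -1.08 relative to siNTC5). CREB3L2 stood at 208 and 210 CPM there, above every other library (-1.91 ± 0.06, against -0.91). P4HB (-1.32 ± 0.05 and -0.49) and MANF (-0.91 ± 0.07 and -0.57) were below both controls. EDEM1 lay between them, at 34.4 and 37.5 CPM in Scramble, so that it was 0.49 ± 0.07 higher than in Scramble and -0.50 relative to siNTC5.

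**Figure D5:**
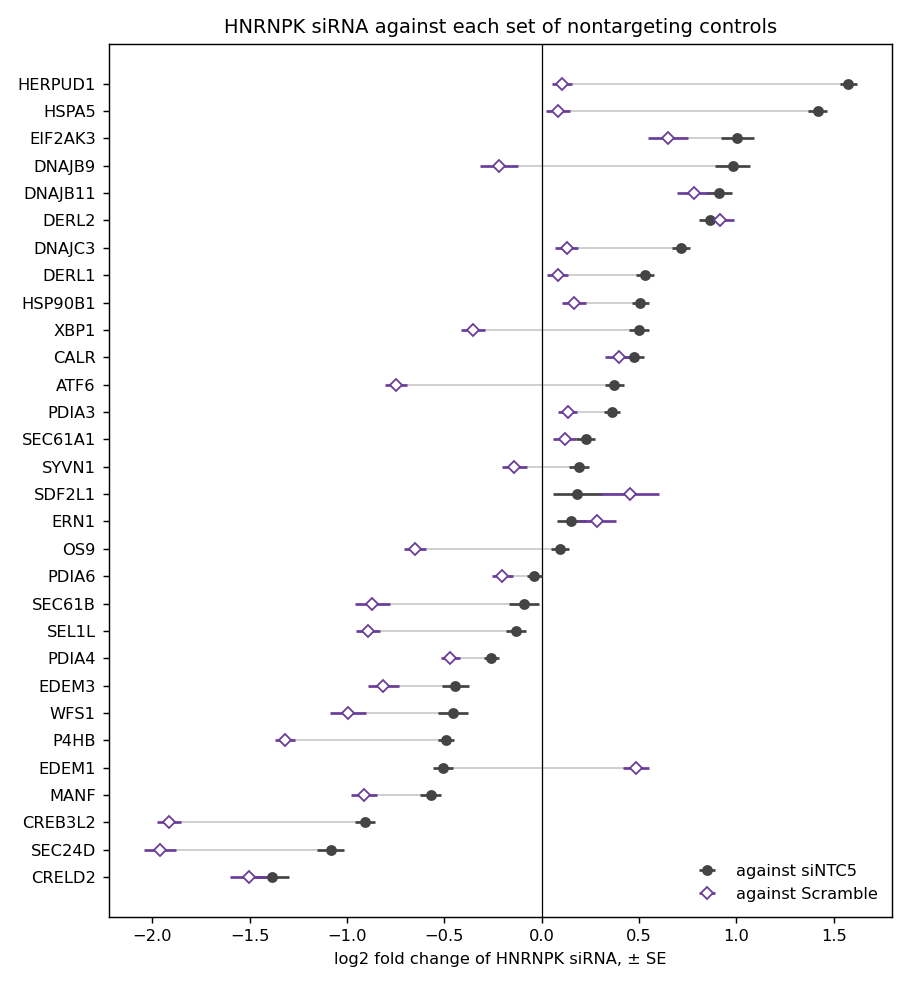
Log2 fold change of HNRNPK siRNA against siNTC5 (filled circles) and against Scramble (open diamonds) for 30 genes, leaving out HYOU1, EDEM2, CANX and the untested DERL3, with bars ± SE and a grey line joining the values of a gene. Both comparisons share the siHNRNPK libraries; HERPUD1 lies at 1.58 and 0.10, and DERL2 at 0.87 and 0.92.

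Few of the 34 genes lay inside the deposited chromatin domains, which also held only a small share of all genes. The 7 lists hold domains of H3K27me3 (a Polycomb mark), H3K9me2 and H3K9me3 (heterochromatin marks) and lamin B1 (LMNB1, nuclear lamina contact), 1 list per antibody and siRNA with no replicates. The count covers genes with 50% or more of the RefSeq span inside domains. For H3K27me3 this held for 1 gene of 34 in control cells (9.84% of 13481 tested genes) and 1 in depleted cells (8.41%), WFS1 both times. WFS1 (chr4:6269850-6303265) lay wholly inside a domain of 1800 kb in control and 1795 kb in depleted cells.

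For H3K9me3 it held for 0 genes in control (2.94% of all genes) and 1 in depleted cells (5.90%). That gene, OS9 (chr12:57694132-57721557), was covered over 3.17% of its body by a domain of 65 kb in control cells and over 57.9% by one of 90 kb in depleted cells, while its RNA did not pass (0.09 ± 0.05). It held for 0 genes with H3K9me2 in control cells (1.20%), and with LMNB1 for 0 genes in control (2.96%) and 0 in depleted cells (2.57%). CREB3L2 touched a lamin B1 domain over 7.88% of its body in control cells and none in depleted cells, and P4HB over none in control and 10.6% in depleted cells. With 1 list a condition, these differences have no replicate check.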

How the data were processed

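Gene counts of 10 RNA libraries were deposited as whole numbers per gene symbol, 1 table of 8 libraries and 2 tables of Scramble libraries. Per the submitters' processing notes, STAR 2.7.1a and featureCounts were used for both, with Subread 2.0.6 and hg38 named for the 8 libraries and DESeq2, hg19 and hg38 for Scramble, with no role. Annotation and strand setting are not given in the sources used here. The authors deposited 7 domain lists with a score per domain, which was not used in any comparison. Their notes name hg38, fastp 0.23.2, Bowtie2 2.5.1 and deepTools 3.1.3, but the domain caller, the pooling of replicates and the use of input are not given in the sources used here.

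Counts were filtered by filterByExpr, scaled by TMM and fitted with edgeR 4.0.16 (R 4.3.3) as kit plus siRNA, or with a mean per kit and siRNA, and tested by quasi-likelihood with Benjamini-Hochberg adjustment over all genes (threshold 0.05). The fit of 10 libraries used 25527 shared names (14642 tested). CPM values are TMM-scaled. Scripts were tested on simulated data. Same-numbered libraries deviated together from their group means (r across genes 0.100, 0.425, 0.337 and 0.265 for replicates 1 to 4), a pairing that coincides with kit. After kit means were removed r was 0.058 for replicates 1 and 2 and 0.009 for replicates 3 and 4. The replicates of a kit share a value by construction, as each kit holds 2 libraries of each siRNA.

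Positions and promoters come from RefSeq (GRCh38.p14), matched by symbol. Alternatives were DESeq2 1.42.0, other scalings and filters, no kit term, a replicate block, single kits, and the omission of 1 library at a time. The genes and lists were chosen with earlier results of these data known. Values in every library were given for HERPUD1, HSPA5, the sensors, XBP1 and the 3 genes with the highest and the 3 with the lowest change against siNTC5. In the other comparisons the 3 lowest p-values among genes that passed were named (none passed in the interaction), and for Scramble against siNTC5 these fell on CANX, HYOU1 and EDEM2. In each list the highest and lowest called genes were named, with ATF4, DDIT3, ATF3 and CHAC1. Other genes named were chosen after their values were seen. Protein sequences were not used here.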

Additional observations from a re-analysis of the deposited data

Results flagged for a closer look

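In 3 of the 62 groups of 4 libraries (31 genes, siNTC5 and siHNRNPK) the highest or lowest library stood apart from the other 3 by Dixon's criterion, which chance gives in about 5% of groups. SEL1L stood at 105.2 CPM in siNTC5 replicate 1 and at 97.0 to 98.2 CPM in the other controls. EDEM3 stood at 25.5 CPM in siHNRNPK replicate 4 and at 27.9 to 28.2 CPM in the other depleted libraries. OS9 stood at 182.8 CPM in siHNRNPK replicate 4 and at 156 to 159 CPM in the others.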

How the results depend on the processing

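Against siNTC5, the count of 16 higher and 10 lower genes stayed within 1.5 times under each alternative scaling, filter, model and omitted library (15 to 17 higher and 9 to 10 lower with 1 library left out). The replicate block in place of kit gave 16 and 10, and moved no other count of calls by over 1.5 times apart from the interaction. Required to change at least 2-fold, 3 genes were higher and 2 lower. Over all 13933 genes, 2196 changed at least 2-fold in either direction, called or not. With this requirement the lists of other genes held 3 (folding), 2 (decay), 0 (translocation), 1 (export and retrieval), 1 (sensors and factors) and 8 (ATF4 arm) called genes. ERN1 turned to -0.030 in the Ligation libraries alone, and passed in the TruSeq libraries alone (0.33), with upper-quartile scaling (0.19), with a mean of at least 50 counts (0.18), and without siNTC5 replicate 4 (0.20) or siHNRNPK replicate 3 (0.20); the cause was not tested.

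The interaction called 2 genes with DESeq2, 4 without a filter and 1 with the replicate block within kit. Over all genes its calls went from 10 higher and 8 lower to 42 and 29, 158 and 81, and 49 and 17 in these settings. Upper-quartile scaling gave 8 and 13 over all genes. With 1 library left out the difference was 0.36 to 0.46 for DNAJB11 and 0.25 to 0.28 for HSPA5. Ligation against TruSeq called 4 to 12 genes in siNTC5 and 6 to 14 in siHNRNPK with 1 library left out. Genes lower in Scramble than in siNTC5 numbered 4 with upper-quartile scaling, 2 without a filter, 2 in the TruSeq libraries alone, 2 in the control libraries alone and 1 to 2 with 1 library left out. The causes were not tested.

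Counting any overlap with a domain gave 3 genes for H3K27me3 in control and 3 in depleted cells, 1 for H3K9me3 in control cells, and 1 for LMNB1 in control and 1 in depleted cells. With domains of at least 100 kb, H3K9me3 in depleted cells held 0. Allowing 1 mismatch, ERSE was found for 14 of 30 genes, against 1.89% of all genes. HYOU1, EDEM2 and DERL3 had 0 to 17 counts in the table of 8 libraries and could not be tested there, although HYOU1 and EDEM2 had over 1000 counts in each Scramble library.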
